A study of Mus musculus with 9 samples.

Results

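Hepatocyte identity rests on a small group of transcription factors that bind the promoters and enhancers of liver genes together and control one another. The 9 examined here were chosen by name as hepatocyte-enriched factors: Hnf4a, Cebpa, Cebpb, Foxa1, Foxa2, Foxa3, Onecut1, Nr5a2 and Prox1. All 9 of the 9 were found among the 27179 genes of the table, and all 9 passed the filter on low values (a mean of at least 10 normalized counts per library), which 12993 genes passed. HNF4A is a nuclear receptor that holds much of the adult liver programme, from apolipoproteins to clotting factors. The FOXA proteins open closed chromatin ahead of other factors, and the C/EBP proteins are leucine zipper factors of metabolic and acute-phase genes. ONECUT1 (also called HNF6), NR5A2 (LRH-1) and PROX1 act in liver development and, in the adult, in glucose, bile acid and lipid metabolism.

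Poly(A) RNA was sequenced in bulk from frozen tissue of 9 wild-type C57BL/6J mice, each injected with AAV8 at 17 months of age with the m-lobe of the liver taken 3 weeks later. In both groups the virus carried saCas9, a small Cas9 nuclease, driven by the hepatocyte-active TBG promoter. In 4 mice the U6-driven guide RNA was directed at the Rosa26 safe-harbour locus (sgRosa26, the control, libraries A to D), and in 5 at Ccnd1, the gene of the cell cycle regulator cyclin D1 (sgCcnd1, libraries E to I). The study asked what loss of Ccnd1 in hepatocytes changes in aged liver, and the comparison here is of the level of each factor between these groups. There was no uninjected group, so the controls share the virus, the nuclease and DNA cutting with the other mice, and only hepatocytes were targeted while all liver cells were sequenced. In such bulk RNA, fewer cells of a type and less RNA per cell cannot be told apart.

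Depth was 10.8 to 20.2 M reads (M, mega) assigned to genes per library. Ccnd1 was read at 684, 800, 625 and 867 normalized counts (reads divided by 1 size factor per library) in the controls and at 428, 347, 370, 339 and 325 in sgCcnd1, so the groups did not overlap. It fell by 1.03 on the log2 scale (limma, adjusted p = 0.0116), although the adjusted p missed 0.05, at 0.0558 to 0.0857, when library B, D, F, H or I was left out. Library H of the sgCcnd1 group stood apart from the other 8 in the Y-linked gene Ddx3y, at 2.00 normalized counts against 810 to 1154, and the labels give no sex. Fold changes of the factors that rest on library H are therefore given with and without it. Of the hepatocyte markers, 0 of 13 tested passed in either direction (0 also at an unadjusted p under 0.05), with a median log2 fold change of 0.05. Their summed level was 1962085 to 2272181 normalized counts in sgRosa26 and 1860761 to 2355256 in sgCcnd1. The asialoglycoprotein receptor gene Asgr1 was at 5163 to 6605 and 6218 to 8061 (0.23, adjusted p = 0.468) and the apolipoprotein gene Apob at 48543 to 65509 and 55951 to 77443 (0.18, adjusted p = 0.650).

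The starts of 4 transcripts are shown because their genes mark the ends of what follows. Onecut1, Foxa1 and Foxa2 all had their highest level in library H, and Hnf4a had the smallest SD within groups of the 9 on the log2 scale. Each line gives the 250 bases before a RefSeq transcript start on GRCm38.p6, read 5′ to 3′ on the gene's strand. The windows lie at chr9:74861671-74861920 on the plus strand (Onecut1), chr12:57546112-57546361 on the minus strand (Foxa1, inside the annotated gene), chr2:148046970-148047219 on the minus strand (Foxa2, the most upstream of its 3 starts) and chr2:163546905-163547154 on the plus strand (Hnf4a, the downstream of its 2 starts, inside the annotated gene). Capitals mark matches on either strand to a forkhead motif (TGTTTNC), an ONECUT motif (ATCAAT) or an HNF1 motif (GTTAAT). HNF4 (CAAAGTNCA), C/EBP (TTGCNNAA) and NR5A (AAGGTCA) motifs were searched in the same way and had no match in these 4 windows.
Onecut1: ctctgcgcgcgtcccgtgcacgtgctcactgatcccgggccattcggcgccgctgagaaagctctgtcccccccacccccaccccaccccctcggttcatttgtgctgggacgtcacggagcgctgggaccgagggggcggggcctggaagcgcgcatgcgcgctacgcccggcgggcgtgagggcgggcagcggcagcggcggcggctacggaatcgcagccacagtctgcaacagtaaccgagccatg
Foxa1: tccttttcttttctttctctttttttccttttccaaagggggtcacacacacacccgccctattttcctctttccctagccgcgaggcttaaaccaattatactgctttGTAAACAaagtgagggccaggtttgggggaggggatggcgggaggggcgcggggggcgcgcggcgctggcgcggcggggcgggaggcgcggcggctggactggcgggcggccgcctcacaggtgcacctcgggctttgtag
Foxa2: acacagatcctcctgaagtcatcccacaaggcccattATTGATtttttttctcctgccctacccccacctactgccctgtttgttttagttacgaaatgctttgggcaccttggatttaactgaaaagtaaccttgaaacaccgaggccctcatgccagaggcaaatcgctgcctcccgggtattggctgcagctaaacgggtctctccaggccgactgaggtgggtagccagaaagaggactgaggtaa
Hnf4a: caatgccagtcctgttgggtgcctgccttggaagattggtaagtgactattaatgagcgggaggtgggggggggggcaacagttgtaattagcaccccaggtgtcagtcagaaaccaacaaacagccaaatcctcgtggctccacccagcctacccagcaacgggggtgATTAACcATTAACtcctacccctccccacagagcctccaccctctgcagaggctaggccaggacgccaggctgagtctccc

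The forkhead letters were found before Foxa1 once, the ONECUT letters before Foxa2 once, and the HNF1 motif before Hnf4a 2 times, side by side. The Onecut1 window held none of the 6. No matches of different motifs overlapped in these windows. Among 32851 windows of the same length before RefSeq transcript starts, 17.8% held the forkhead motif, 6.72% the ONECUT motif and 6.43% the HNF1 motif. The HNF4 motif was in 1.19%, the C/EBP motif in 9.56% and the NR5A motif in 4.08%. The 9 genes have 14 such windows, of which 3 held the forkhead motif, 3 the HNF1 motif, 2 the ONECUT motif, 1 the C/EBP motif and 0 the HNF4 or NR5A motif. A match describes letters only, and the data here hold no measurement of binding.

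Per length of exon, Cebpa and Hnf4a were the most abundant of the 9 in the control livers, at 2214 ± 207 and 1837 ± 187 normalized counts per kb (SD, n = 4). Cebpb followed at 662 ± 146 and Foxa3 at 410 ± 68.6 per kb. Foxa2 was at 165 ± 12.9, Nr5a2 at 137 ± 26.3 and Foxa1 at 98.9 ± 18.2 per kb. Prox1 was at 67.8 ± 32.2 and Onecut1, the least abundant, at 19.1 ± 8.59 per kb (SD, n = 4). The order of the group means was the same in sgCcnd1. Neighbours in it were not all separate: Hnf4a was above Cebpa in library A, Cebpb was below Foxa3 in library A, and the control ranges of Foxa2 and Nr5a2, of Nr5a2 and Foxa1, and of Foxa1 and Prox1 overlapped. Prox1 and Onecut1 did not overlap in the controls, but in sgCcnd1 libraries F and H Onecut1 was above Prox1. Among the forkhead genes Foxa3 was above both Foxa2 and Foxa1 per length in 9 of 9 libraries, and Foxa1 was below Foxa2 in 9 of 9.

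**Figure D1:**
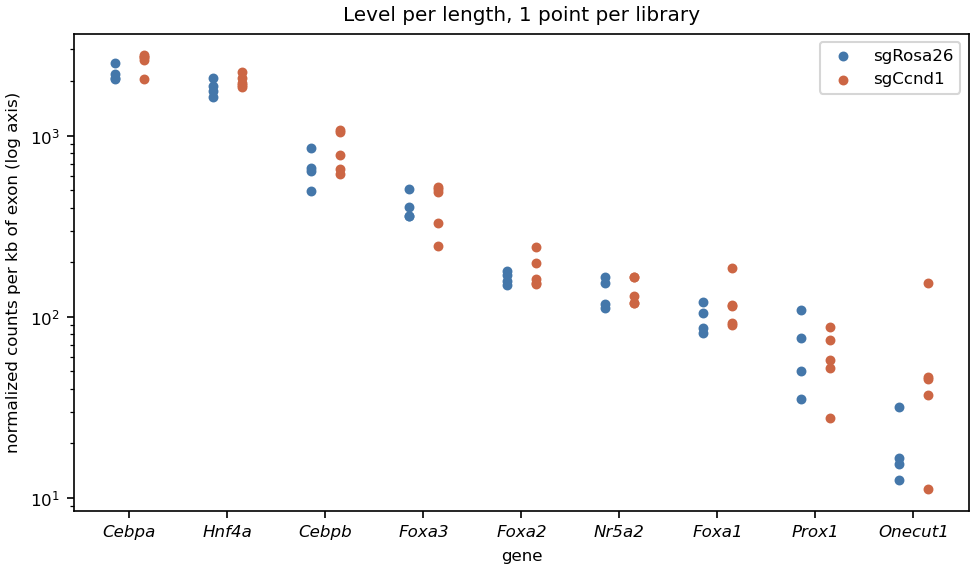
Level of the 9 factors per length of exon (normalized counts per kb, log axis), 1 point per library, blue for sgRosa26 and orange for sgCcnd1, ordered by the control mean. Cebpa and Hnf4a lie near 2000 per kb in both groups, and Onecut1 spreads most widely, from 11.2 to 154 per kb.

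None of the 9 factors passed the threshold for a difference between the groups (an adjusted p under 0.05 over all genes tested) with limma, edgeR or DESeq2. Across all 12993 genes limma called 0 higher (0%) and 1 lower (0.0077%), the latter being Ccnd1 itself, and DESeq2 called 0.262% higher and 0.539% lower. At an unadjusted limma p under 0.05, 1 of the 9 (Onecut1) was higher and 0 were lower, against 5.22% and 5.74% of all genes. The groups overlapped for all 9, whereas 1.92% of all genes were higher and 1.97% lower with no overlap. Of the 9 fold changes 7 were positive and 2 negative, with a median of 0.14 on the log2 scale against 0.01 over all genes. These counts describe a list chosen with earlier results known and carry no test of their own. The gene lists set beside the factors in the following paragraphs likewise had 0 members past adjustment with limma and edgeR, and DESeq2 called members of 3 of them. The count of each list at an unadjusted limma p under 0.05 is given with it.

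**Figure D2:**
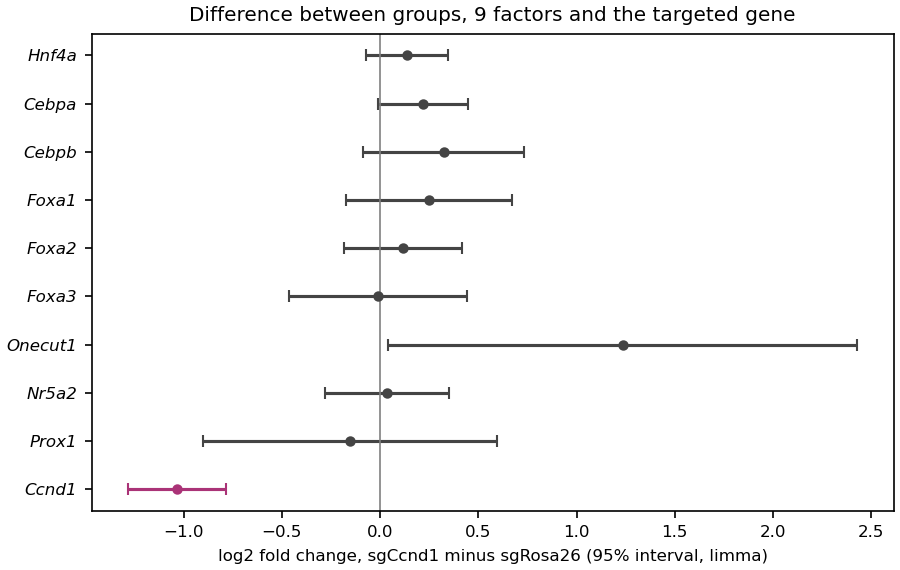
Log2 fold change of each factor and of Ccnd1 (magenta), sgCcnd1 minus sgRosa26, from limma, with bars for the 95% interval. The Ccnd1 interval lies below 0, the Onecut1 interval spans 0.04 to 2.43, and the intervals of the other 8 factors include 0.

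Hnf4a (chr2:163506811-163572907, plus strand), the nuclear receptor of the set, was read at 10021, 7905, 8490 and 9063 normalized counts in libraries A to D and at 9425, 9041, 9255, 10123 and 10907 in E to I. All 5 sgCcnd1 livers were above the control mean and 2 of them, H and I, above the highest control. The means were 8870 ± 901 (SD, n = 4) and 9750 ± 763 (SD, n = 5), a log2 fold change of 0.14 with an SE of 0.10 (limma, adjusted p = 0.621; exact two-sided permutation p = 0.143). The 95% interval ran from 0.95-fold to 1.27-fold, and so includes no difference. The log2 value moved to 0.03 with quantile normalization and to 0.09 without library B. Hnf4a varied little between animals of a group: its SD within groups was 0.13 on the log2 scale, and 28.0% of the genes at a like level (within 0.5 log2 units) varied less. Its neighbour Hnf4aos, a transcript from the opposite strand, was at 39.0 to 84.1 normalized counts, far below Hnf4a, and differed by -0.19 (adjusted p = 0.773). Whether the authors' counting used strand is not given in the sources used here. The paralog Hnf4g, mainly an intestinal gene, reached at most 11.4 normalized counts in any library and was not tested.

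Genes that HNF4A is known to bind and activate were examined beside it. Of 23 tested targets 0 passed the adjusted threshold in either direction (3 were higher and 0 lower unadjusted), 17 fold changes were positive, and the median was 0.15. Slc27a5, a bile acid and fatty acid ligase, was at 12700, 11178, 12676 and 12049 normalized counts in the controls and 13804, 14512, 17406, 15288 and 13504 in sgCcnd1. The groups did not overlap for Slc27a5, whose log2 difference was 0.29 (adjusted p = 0.334 with limma). Pklr, the liver pyruvate kinase, was at 5477 to 7689 in the controls and 7097 to 12738 in sgCcnd1, or 0.46 on the log2 scale (adjusted p = 0.338). The direction of this target list and that of Hnf4a are values from the same libraries and were not tested together.

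Cebpa (chr7:35119293-35121928, plus strand) encodes C/EBPalpha, which drives gluconeogenic and urea cycle genes and restrains proliferation. It was read at 5460, 5489, 5771 and 6628 normalized counts in the controls and at 6911, 7333, 5445, 7157 and 7177 in sgCcnd1. Libraries E, F, H and I were above every control, whereas G lay below every control. The means were 5837 ± 546 (SD, n = 4) and 6805 ± 775 (SD, n = 5), a log2 fold change of 0.22 with an SE of 0.11 and an interval from -0.01 to 0.45. This did not pass (limma, adjusted p = 0.476; exact two-sided permutation p = 0.0873). Without library G the fold change was 0.30 with an adjusted p of 0.388, and with quantile normalization it was 0.12. Of 12 tested C/EBPalpha targets 0 passed in either direction (1 higher and 0 lower unadjusted) and 9 fold changes were positive, with a median of 0.14. Gys2, the liver glycogen synthase, was at 1861 to 2706 in the controls and 2455 to 3405 in sgCcnd1 (0.36, adjusted p = 0.337). Tdo2, which opens the tryptophan ring, was at 12704 to 14018 and 13730 to 19209 (0.21, adjusted p = 0.504).

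Cebpb (chr2:167688915-167690432, plus strand) encodes C/EBPbeta, an inducible relative that responds to cytokines and fasting. Its levels were 748, 996, 956 and 1283 normalized counts in the controls and 989, 1580, 1612, 1176 and 925 in sgCcnd1. Libraries F and G exceeded every control while E, H and I lay within the control range. The means were 996 ± 220 (SD, n = 4) and 1256 ± 324 (SD, n = 5), with a log2 fold change of 0.32 (SE 0.19, interval -0.09 to 0.73; limma, adjusted p = 0.544; exact two-sided permutation p = 0.206). Without library A the fold change was 0.19. Library G combined the highest Cebpb with the lowest Cebpa of the 9 animals. Per length, Cebpb was at 51.9% of Cebpa in G and between 22.6% and 37.8% in the other 8. The acute-phase genes that C/EBPbeta is known to drive did not pass, 0 of 18 in either direction (0 also unadjusted), with a median of 0.06. Their mean log2 level was highest in G (12.79) and A (12.69) and between 11.78 and 12.17 in the other 7 libraries, and A had the lowest Cebpb of all. The C-reactive protein gene Crp was at 5304 to 5783 in the controls and 5377 to 8512 in sgCcnd1 (0.22, adjusted p = 0.528), and the orosomucoid gene Orm1 at 6684 to 8608 and 6994 to 13647 (0.20, adjusted p = 0.695).

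Myeloid cells also express Cebpb, so their markers are given beside it. Of 16 myeloid markers tested 0 passed with limma or edgeR, whereas DESeq2 called 4 lower (Mpeg1, Lyz2, Cd68 and Spi1). Unadjusted, 6 were lower and 0 higher, 14 fold changes were negative with a median of -0.39, and 5 markers were lower in sgCcnd1 with no overlap. Their summed level was 5206 to 5866 normalized counts in the controls and 4153 to 5070 in sgCcnd1, and none of the listed markers was at 0 in all libraries. Lyz2, the macrophage lysozyme, was at 897 to 1063 and 659 to 826 (-0.44; limma, adjusted p = 0.225; DESeq2, adjusted p = 0.00216). Mpeg1, a macrophage pore protein, was at 1264 to 1712 and 760 to 1060 (-0.62; limma, adjusted p = 0.225; DESeq2, adjusted p = 0.00144). The part of these cells in the Cebpb values was not tested.

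The other C/EBP genes were lower than Cebpa per length. Cebpg, a partner that lacks an activation domain, was at 1060, 962, 863 and 1015 normalized counts in the controls and at 1080, 1135, 1168, 1381 and 1219 in sgCcnd1, where all 5 animals lay above every control. It nevertheless did not pass (log2 fold change 0.29; limma, adjusted p = 0.306; exact two-sided permutation p = 0.0159), and library H was again the highest. Cebpe, a granulocyte factor, was at 91.0 to 153 and 86.9 to 128 (-0.14, adjusted p = 0.773). The paralogs as a list, of which 6 of 9 were tested, had 0 past the threshold (1 higher and 0 lower unadjusted) and a median of -0.09. Cebpd was at 36.9 to 91.2 and the stress factor gene Ddit3 at 58.2 to 120 over all 9 libraries.

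**Figure D3:**
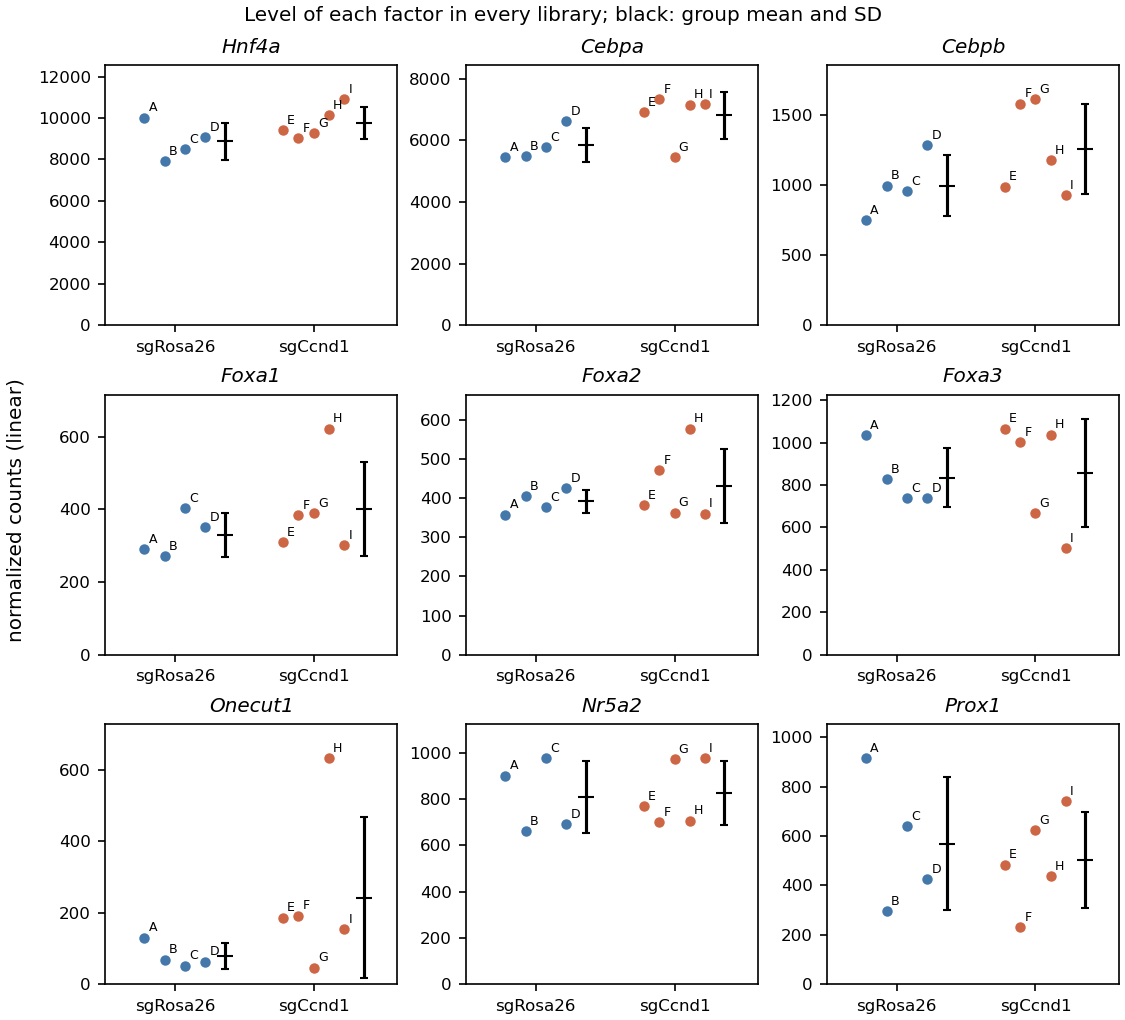
Normalized counts (linear axes from 0) of the 9 factors in every library, lettered A to I, with black bars for the group mean and SD. The groups overlap in every panel, and library H is the highest point for Foxa1, Foxa2 and Onecut1.

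Library H was the highest of the 9 for the forkhead genes Foxa1 and Foxa2 and next to the highest for Foxa3. Foxa1 (chr12:57540628-57548029, minus strand) was at 290, 271, 404 and 352 normalized counts in the controls and at 310, 383, 389, 622 and 301 in sgCcnd1. Only library H lay above the highest control. The means were 329 ± 60.4 (SD, n = 4) and 401 ± 130 (SD, n = 5), a log2 fold change of 0.25 (interval -0.17 to 0.67; limma, adjusted p = 0.660; exact two-sided permutation p = 0.373). Without library H it was 0.08 (adjusted p = 0.912) and without B 0.16.

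Foxa2 (chr2:148042877-148046969, minus strand), which also answers to insulin in hepatocytes, was at 358, 406, 376 and 426 in the controls and at 382, 471, 363, 578 and 360 in sgCcnd1. Libraries F and H were above the controls and the other 3 within their range. The means were 392 ± 30.5 (SD, n = 4) and 431 ± 93.7 (SD, n = 5), with a log2 fold change of 0.12 (interval -0.18 to 0.41; limma, adjusted p = 0.784; exact two-sided permutation p = 0.532). Without library H the value was 0.0038 (adjusted p = 0.995), without A 0.07 and without I 0.17.

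Foxa3 (chr7:19013283-19023539, minus strand), the forkhead gene most abundant in adult liver, was at 1034, 827, 739 and 737 in the controls and at 1066, 1002, 669, 1038 and 501 in sgCcnd1. The sgCcnd1 animals split, with E and H above every control, G and I below every control, and F between. The means were 834 ± 140 (SD, n = 4) and 855 ± 255 (SD, n = 5), and the log2 fold change was -0.01 (interval -0.47 to 0.44; limma, adjusted p = 0.992; exact two-sided permutation p = 0.976). Its sign was not stable, being 0.03 with edgeR and 0.03 with DESeq2. None of 11 tested FOXA targets passed in either direction (0 also unadjusted), and their median was 0.07. Slco1a4, an organic anion carrier, was at 763 to 1350 in the controls and 490 to 1106 in sgCcnd1 (-0.44, adjusted p = 0.528), and Cpt1a, which admits fatty acids to mitochondria, at 3894 to 5490 and 4480 to 5952 (0.14, adjusted p = 0.706).

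Onecut1 (chr9:74861921-74889648, plus strand) had both the largest fold change of the 9 and the largest spread. It was at 130, 68.4, 51.6 and 63.1 normalized counts in the controls and at 186, 192, 46.0, 632 and 153 in sgCcnd1. Libraries E, F, H and I lay above every control, whereas G was the lowest of all 9 animals. The means were 78.4 ± 35.3 (SD, n = 4) and 242 ± 226 (SD, n = 5). Without library H, which was 8.06-fold above the control mean, the sgCcnd1 mean was 144 ± 67.6 (SD, n = 4). The log2 fold change was 1.23 with an SE of 0.55 and an interval from 0.04 to 2.43, equal to 1.03-fold to 5.39-fold. It did not pass after adjustment (limma, unadjusted p = 0.0438, adjusted p = 0.443), nor did the exact permutation test reach 0.05 (two-sided p = 0.119, where 0.00794 is the smallest possible). That the interval leaves out 0 depended on the fit. The unadjusted p was 0.111 in limma with robust eBayes and 0.0502 in limma with a minimum mean of 100. It was 0.0141 with edgeR (TMM) and 0.0179 with DESeq2.

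The Onecut1 value depended on single animals in both directions. Without library H the log2 fold change was 0.77 (limma, adjusted p = 0.679), and without library G it was 1.71 (adjusted p = 0.375). In edgeR it was 1.64 with all libraries (adjusted p = 0.352) and 0.89 without H (adjusted p = 0.620). Within groups Onecut1 varied with an SD of 1.07 on the log2 scale, and 99.7% of genes at a like level varied less. Its highest and lowest animals were 13.7-fold apart, the highest being library H. Without H the values lay between 46.0 (G) and 192 (F) normalized counts. The SD on the log2 scale and its rank were not computed without H.

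Onecut2, the paralog that binds a similar sequence, did not share this spread. It was at 1164, 895, 1127 and 1071 normalized counts in the controls and 876, 1001, 1192, 1355 and 1070 in sgCcnd1 (log2 fold change 0.04; limma, adjusted p = 0.938). Per length, Onecut1 was at 18.1% to 44.2% of Onecut2 in the controls and at 83.8%, 75.6%, 15.2%, 184% and 56.5% in libraries E to I. Library H was thus the only one in which Onecut1 exceeded Onecut2 per length. Onecut3 was at 0 in all 9 libraries.

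Onecut1 is also a biliary gene, as ONECUT1 acts in bile duct development. Of 7 cholangiocyte markers tested 0 passed, 4 fold changes were negative, the median was -0.31, and 1 was lower at an unadjusted p under 0.05. The summed level of the list was 1060 to 2054 normalized counts in the controls and 878 to 1357 in sgCcnd1, with none of the 10 listed at 0 in all libraries. Over the 9 libraries the duct markers Krt19, Krt7 and Epcam were at 6.57 to 49.1, at most 27.4, and 14.1 to 58.7. The part of bile duct cells in the Onecut1 values was not tested. Sox9, a biliary factor, was at 275, 212, 213 and 181 in the controls and 213, 160, 117, 118 and 175 in sgCcnd1 (-0.51, adjusted p = 0.346), and Spp1, osteopontin, at 680 to 1564 and 580 to 894 (-0.31, adjusted p = 0.593).

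**Figure D4:**
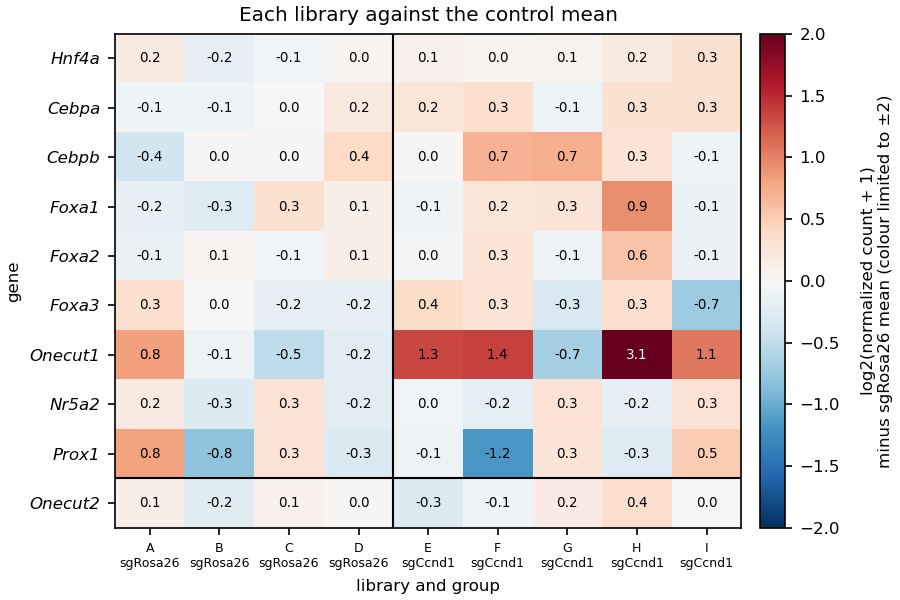
Log2(normalized count + 1) of each factor, and of the paralog Onecut2 in the bottom row, minus the sgRosa26 mean, in every library (colour limited to ±2). Onecut1 in library H stands 3.09 above the control mean, and the Prox1 row is high in A and low in B and F.

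Nr5a2 (chr1:136842562-136960448, minus strand), a receptor of bile acid and cholesterol genes, was at 902, 662, 977 and 691 normalized counts in the controls and at 771, 700, 975, 708 and 978 in sgCcnd1. Both groups held high and low animals, and the ranges were nearly the same. The means were 808 ± 155 (SD, n = 4) and 826 ± 140 (SD, n = 5), and the log2 fold change was 0.04 (interval -0.28 to 0.35; limma, adjusted p = 0.948; exact two-sided permutation p = 0.778). Its sign turned with quantile normalization, to -0.0016. Of 12 tested NR5A2 targets 0 passed in either direction (2 higher and 0 lower unadjusted), 6 fold changes were positive and 6 negative, and the median was 0.02. Abcb11, the bile salt export pump, was at 8183 to 9793 in the controls and 9146 to 13707 in sgCcnd1 (0.41, adjusted p = 0.297), and Gls2, the liver glutaminase, at 5101 to 6045 and 6042 to 6635 (0.19, adjusted p = 0.396). The paralog Nr5a1, a factor of steroid-producing tissues, was at 0 in all 9 libraries.

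Prox1 (chr1:190118035-190170827, minus strand), a homeobox factor that partners HNF4A and NR5A2 as a corepressor, was at 915, 297, 640 and 424 normalized counts in the controls and at 484, 232, 625, 437 and 742 in sgCcnd1. Both groups spanned a wide range, with A highest and F lowest. The means were 569 ± 270 (SD, n = 4) and 504 ± 194 (SD, n = 5), and the log2 fold change was -0.15 (SE 0.34, interval -0.90 to 0.60; limma, adjusted p = 0.906; exact two-sided permutation p = 0.746). Leaving out library A or F turned its sign, to 0.12 and 0.10. Within groups its SD was 0.67 on the log2 scale, and 99.2% of genes at a like level varied less. The paralog Prox2 was at 17.0 to 44.0.

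The Prox1 level followed a property of the libraries. A length index was computed for each library as the mean log2 difference from the average library of 5366 genes of at least 5000 bases of exon, minus that of 889 genes under 1500 bases, with the 9 factors left out. It was 0.24, -0.26, 0.11 and -0.20 in the controls and 0.12, -0.22, 0.05, -0.01 and 0.18 in sgCcnd1, so that A, I and E leaned to long genes and B, F and D to short ones. Across the 9 libraries Prox1 correlated with the index with Pearson's r = 0.904 (exact permutation p = 0.000468, adjusted 0.0211) and Spearman's rho = 0.933 (exact permutation p = 0.00075, adjusted 0.0337). The adjustment was over 45 relations, 36 between pairs of the factors and 9 with the index, and this was the only 1 that passed. Prox1, at 8390 bases of exon, is itself of the long class, so a positive relation with the index was likely from the start. How many other long genes follow the index as closely was not counted, so the relation is not shown to be particular to Prox1. Without the 2 libraries farthest from the median index, B and F, r was 0.824. Within sgCcnd1 it was 0.930 and within sgRosa26 0.975, values that were not tested.

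**Figure D5:**
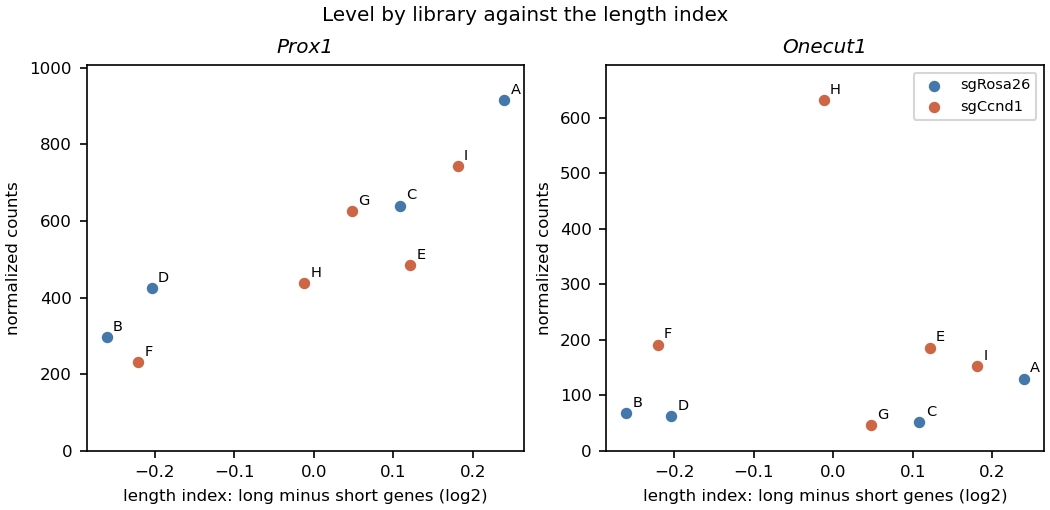
Normalized counts of Prox1 (left) and Onecut1 (right) against the length index of each library, lettered A to I, blue for sgRosa26 and orange for sgCcnd1. Prox1 rises along the index from B, F and D to A, and Onecut1 in library H stands high at an index of -0.01.

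Prox1 has 8390 bases of exon, the longest of the 9 genes. With the index as a covariate, a fit chosen after the data were seen, the residual SD of Prox1 dropped from 0.67 to 0.24 and its log2 fold change was -0.32 (limma, adjusted p = 0.321). In that fit Cebpb was at 0.39 (adjusted p = 0.256), Cebpa at 0.23 (adjusted p = 0.341) and Nr5a2 at -0.02 (adjusted p = 0.952), and again 0 of the 9 passed adjustment. The unadjusted limma p in it was under 0.05 for Cebpb (0.0159), Prox1 (0.0371) and Cebpa (0.0449), and above it for Onecut1 (0.0574). The share of all genes under 0.05 in that fit was not counted. The residual SD of Onecut1, in contrast, was 1.07 without and 1.16 with the index. What sets the index was not tested. Lymphatic endothelium also expresses Prox1. Its markers Ccl21a, Pdpn and Mmrn1 were at or near 0, at most 1.23, 15.8 and 13.0 normalized counts, and the 9 endothelial and lymphatic markers that passed the filter had a median fold change of -0.16 with 0 past the threshold in either direction (0 also unadjusted). The list of 12 summed to 3519 to 4940 normalized counts in the controls and 3653 to 5192 in sgCcnd1. Reln of the same list was at 637 to 955 and 576 to 836 (-0.27, adjusted p = 0.479) and the scavenger receptor gene Stab1 at 690 to 874 and 581 to 875 (-0.23, adjusted p = 0.503). The part of lymphatic vessels in the Prox1 values was not tested.

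Among the 36 pairs of factors none passed after adjustment. By Pearson's r the closest was Nr5a2 with Prox1, at r = 0.834 (exact permutation p = 0.00566, adjusted 0.127) and rho = 0.85 (adjusted 0.0911), and without libraries C and I r was 0.807. Nr5a2, at 5899 bases of exon, is also of the long class. Like Prox1, it had higher levels in libraries with a higher length index, at r = 0.810 (exact permutation p = 0.0158, adjusted 0.237) and rho = 0.80 (adjusted 0.155). Its residual SD was 0.26 without and 0.16 with the index as a covariate. By Spearman's rho the closest pair was Foxa2 with Prox1, at -0.867 (exact permutation p = 0.00451, adjusted 0.0911), with r = -0.60 (adjusted 0.399), or -0.839 without libraries F and H. Foxa2 itself had lower levels in libraries with a higher index, at rho = -0.783 (exact permutation p = 0.0172, adjusted 0.155) and r = -0.51 (adjusted 0.453). Foxa1 with Foxa2 had r = 0.761 (exact permutation p = 0.0299, adjusted 0.261) and rho = 0.433 (adjusted 0.562), and r dropped to 0.420 without libraries B and H. Foxa2 with Nr5a2 had r = -0.68 (exact permutation p = 0.0263, adjusted 0.261) and rho = -0.717 (adjusted 0.207), and r was -0.873 without libraries F and H. Cebpa with Onecut1 had r = 0.691 (exact permutation p = 0.0349, adjusted 0.261) and rho = 0.767 (adjusted 0.160), and r was 0.728 without libraries A and G. Foxa2 with Onecut1 had r = 0.690 (exact permutation p = 0.0407, adjusted 0.261) and rho = 0.467 (adjusted 0.544), and r was -0.312 without libraries F and H. Cebpb with Prox1 had rho = -0.70 (exact permutation p = 0.0433, adjusted 0.216) and r = -0.565 (adjusted 0.399).

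Over the 9 libraries the genes whose log2 level was most like that of Hnf4a were Zfp451 (r = 0.966), Ddx6 (0.964) and Ccny (0.961). For Cebpa they were Zfp35 (0.944), Timm21 (0.939) and Armc1 (0.930), and for Cebpb Adk (0.973), Pink1 (0.972) and Haao (0.947). After the data were seen the same was asked for Onecut1, which gave Gtpbp4 (0.942), Wdr75 (0.927) and Mbd1 (0.914), and for Prox1, which gave Usp46 (0.977), Numb (0.962) and Phf21a (0.961). These are the highest of many correlations over 9 points that share depth and scaling, and they are a description. All of them include library H, and they were not computed without it.

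The wider network of liver transcription factors was examined by a list of other such genes, of which 25 were tested. With limma 0 passed in either direction (2 higher and 1 lower unadjusted) and the median was -0.02. Thrb, the liver thyroid hormone receptor, was at 481 to 645 and 622 to 673 (0.21, adjusted p = 0.437). Among 16 cofactors and regulators 0 passed (0 also unadjusted), and the median was 0.07. The deacetylase gene Sirt1 was at 215 to 237 and 240 to 250, with no overlap (0.14, adjusted p = 0.549).

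Of 13 genes of fetal liver, whose return marks loss of the adult programme, only 7 were abundant enough to test, 0 passed (1 higher and 0 lower unadjusted), and the median was -0.17. The imprinted gene Peg3 was at 21.0 to 72.5 in the controls and 51.9 to 148 in sgCcnd1 (0.86, adjusted p = 0.415), and the glypican gene Gpc3 at 5.83 to 34.2 and 5.34 to 27.0 (-0.92, adjusted p = 0.537). Several of the factors, Onecut1 and Foxa2 among them, are also pancreatic genes. Of 9 acinar markers 5 were at 0 in all libraries, none was abundant enough to test, and the list summed to at most 12.3 normalized counts in any library.

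Other gene groups were read in the same livers, and their part in the values above was not tested. Clock genes had a median of 0.33 over 13 tested, with 5 higher and 2 lower at an unadjusted p under 0.05 and 0 past adjustment with limma. Npas2 was at 83.6 to 178 in the controls and 28.4 to 72.4 in sgCcnd1, with no overlap (-1.29; limma, adjusted p = 0.225; DESeq2, adjusted p = 0.00362), and Nr1d2 was at 836 to 1163 and 982 to 1483 (0.44, adjusted p = 0.282). The labels give no hour of harvest. Immediate early genes had a median of -0.37 over 11 tested (0 higher and 1 lower unadjusted), with Myc at 46.6 to 154 and 42.6 to 79.7 (-0.75, adjusted p = 0.395) and Fos at 11.7 to 34.7 and 9.85 to 18.6 (-0.68, adjusted p = 0.474). Stellate and fibroblast markers had a median of -0.22 over 10 (0 higher and 3 lower unadjusted), with Pdgfrb at 221 to 303 and 145 to 260 (-0.50, adjusted p = 0.333) and Col3a1 at 354 to 781 and 273 to 515 (-0.58, adjusted p = 0.354). Lymphocyte markers had a median of -0.78 over 8 (0 higher and 4 lower unadjusted), with Cd3e at up to 38.5 and up to 24.4 (-1.52, adjusted p = 0.321) and Cd8a at up to 46.0 and up to 40.4 (-1.41, adjusted p = 0.388).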

How the data were processed

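Liver poly(A) RNA-seq of 4 sgRosa26 and 5 sgCcnd1 mice was examined. The deposited table holds a signal, normalized counts per Entrez gene, with 1 column per animal and no replicate number. Columns were matched to groups by guide name, and 0 sample columns were left unused. Letters A to I follow column order and pair nothing. Per the submitters' processing notes, Trim Galore 0.6.7, HISAT2 2.2.1, featureCounts 2.0.3, FastQC 0.74, MultiQC and DESeq2 2.11.40.8 were used with mm10/GRCm38. The annotation and use of strand are not given in the sources used here. In each library 100% of the deposited signal values were whole multiples (within 0.1 read) of the value of 1 read, so read counts were recovered. For library H that value lay too near 1 for an automatic check, so count models were also run without it.

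The test was limma 3.58.1 (R 4.3.3; lmFit, eBayes with trend, two-sided) on log2(normalized count + 1), which understates changes of low genes, for genes with a mean of at least 10. P-values were adjusted by Benjamini-Hochberg over the 12993 genes, with a threshold of 0.05. Each named value was also tested by exact permutation of the group labels (126 arrangements, two-sided). Pairs within a group differed beyond counting noise (chi-square per degree of freedom 13.1 to 42.4), and p-values measure the spread between these animals. Depth bears on counting error, and reads carry no molecular identifiers.

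Alternatives were 21 settings, among them edgeR 4.0.16 and DESeq2 1.42.0 on the recovered reads (254 undefined adjusted p-values were kept so), other scalings and filters, and leaving out each library. Another 3, the length index and both count models without H, were chosen after seeing the data. The members and gene lists were chosen with earlier results of these data known. Named genes were the 9 factors, Ccnd1, the 2 genes of each list with the smallest p where none passed, the paralogs, and the 3 genes of mean 100 or more most like Hnf4a, Cebpa or Cebpb. Some genes that this rule named are not reported here. Cd68, Spi1, Krt7, Krt19, Epcam, Ddx3y and the lymphatic markers were named after their values were seen. Of 11 antisense names searched, 1 was in the table. Exon lengths were unions from GENCODE vM21, matched for 96.6% of genes tested. Coordinates and start windows are RefSeq's on GRCm38.p6. The procedure was tested on simulated data.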

Additional observations from a re-analysis of the deposited data

Results flagged for a closer look

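Of 24 groups of values screened (9 factors, Ccnd1, the length index and depth, each in both groups), 4 held a library far from the others of its group. The screen was Dixon's gap over range, with gene levels on the linear scale. Log2 levels were not screened. Chance gives about 1 in 20, or 1.2 here, for normally distributed values, which linear counts need not be. For Onecut1 and Foxa1 the gap over range was 0.751 and 0.726, against a limit of 0.71. Onecut1 was at 632 normalized counts in sgCcnd1 library H, against 46.0 to 192 in the other sgCcnd1 libraries. Foxa1 was at 622 in the same library, against 301 to 389. Cebpa was at 5445 in sgCcnd1 library G, against 6911 to 7333 in the other 4. Depth was 12.2 M reads in sgRosa26 library A, against 16.2 to 16.6 M in the other controls. No cause was tested for any of them.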

How the results depend on the processing

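No paired analysis was possible because the table's columns carry no replicate numbers. None of the 9 factors passed an adjusted p of 0.05 in any of the 24 alternative settings. Hnf4a, Cebpa, Cebpb, Foxa1, Foxa2 and Onecut1 stayed positive in all 24, at 0.025 to 0.20, 0.12 to 0.30, 0.19 to 0.45, 0.062 to 0.35, 0.00012 to 0.17 and 0.77 to 1.71 in that order. The cause of the following changes was not tested. Foxa3 turned positive with edgeR (0.030 with TMM, 0.034 with RLE), DESeq2 (0.031), array weights (0.070) and the length index as covariate (0.0034), and spanned -0.10 to 0.17 when single libraries were left out, being positive without A (0.097), G (0.063) or I (0.17). Nr5a2 turned negative with quantile normalization (-0.0016) and the length covariate (-0.020), and spanned -0.053 to 0.13 across left-out libraries, being negative without B (-0.053), D (-0.032), G (-0.028) or I (-0.029). Prox1 spanned -0.42 to 0.12, being positive without A (0.12) or F (0.10).

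Genes called lower numbered 1 in limma, 2 with quantile normalization, 3 with the length covariate, 70 with DESeq2 and 0 to 2 with 1 library left out. Without H they were 0 with edgeR and 25 with DESeq2. Genes called higher were 34 with DESeq2 and 16 with DESeq2 without H. Ccnd1 spanned -1.11 to -0.96 with libraries left out. Its adjusted p then missed 0.05 without B (0.0857), D (0.0558), F (0.0587), H (0.0612) or I (0.0626), and in edgeR without H (-1.02, 0.0560). Ccnd1 passed in 18 of the 24 settings, among them DESeq2 with all libraries (adjusted p = 9.7e-12) and without H (adjusted p = 1.04e-08). Unadjusted calls split 678 higher to 746 lower, 464 to 953 with scaling to the 75th percentile and 301 to 733 with scaling to hepatocyte markers. With 4 and 5 animals the precision differs by factor: the 95% interval was -0.90 to 0.60 for Prox1 and 0.04 to 2.43 for Onecut1, against -0.07 to 0.35 for Hnf4a.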
